A study of Mus musculus with 26 samples.

Results

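Titin and 8 scaffold proteins of the Z-disc were followed through the mouse left ventricle. They were the 9 rows of the deposited count table whose symbol is Ttn, Tcap, Actn2, Ldb3, Myoz2, Nebl, Synpo2l, Flnc or Des, out of 15249 genes. Their transcripts were counted in 26 RNA-seq libraries of 4 groups on a C57BL6 background. The groups were wild type (wt, 6 libraries), overexpression of Mst-1, a kinase of the Hippo pathway (MstTg, 7), knockout of galectin-3 (Gal3Ko, 8), and both genotypes together (Mst1Gal3, 5). Mice with extra Mst-1 often serve to model dilated cardiomyopathy, per the series' design text, which asks what the loss of galectin-3, a secreted lectin, changes in each setting. The sources used here give no age, sex or promoter of the transgene. The labels do not say whether replicates are separate animals, so p-values reflect the spread among these samples, which may be technical.

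The Z-disc is the plate at each end of the sarcomere where actin filaments of opposite polarity are crosslinked. Titin, the giant elastic protein encoded by Ttn, runs from the Z-disc to the middle of the sarcomere and sets much of the passive stiffness of heart muscle. Alpha-actinin 2 (Actn2) crosslinks the actin filaments, and telethonin (Tcap) joins the ends of titin molecules. Cypher, also called ZASP (Ldb3), nebulette (Nebl), calsarcin-1 (Myoz2) and the synaptopodin relative encoded by Synpo2l bind to the alpha-actinin and actin lattice. Filamin C (Flnc) crosslinks actin at the Z-disc and at the cell membrane, and desmin (Des) is the muscle intermediate filament that ties neighbouring Z-discs together.

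Flnc, Synpo2l and Des rose with Mst-1 overexpression, by 4.54-fold, 4.87-fold and 2.61-fold in MstTg against wt. The same 3 genes rose by 5.20-fold, 4.82-fold and 2.91-fold in Mst1Gal3 against Gal3Ko, a comparison that shares no library with the first. Ttn rose by 1.20-fold and 1.16-fold, and Myoz2, the calcineurin-binding calsarcin, was 1.14-fold and 1.21-fold lower, although with library totals in place of TMM factors neither call held and the first turned to 0.06 on the log2 scale. Actn2, the core crosslinker, was within 1.05-fold of its control in both comparisons. With library totals it passed as higher in both, at 0.24 and 0.30 on the log2 scale, near the medians of all genes, 0.27 and 0.24. In level, no member passed the test for the galectin-3 knockout alone or for a difference of the Mst-1 response between galectin-3 genotypes. Ldb3 alone passed in Mst1Gal3 against MstTg, 1.17-fold higher, and its ratio to Actn2 passed in Gal3Ko against wt. Both calls were lost when certain single libraries were left out.

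The genes lie apart in the genome (GRCm38, GENCODE M21). Ttn (ENSMUSG00000051747) is at chr2:76703980-76982547 and Nebl (ENSMUSG00000053702) at chr2:17343909-17731464. Ldb3 (ENSMUSG00000021798) is at chr14:34526603-34588682 and Synpo2l (ENSMUSG00000039376) at chr14:20658946-20668354. Actn2 (ENSMUSG00000052374) is at chr13:12269426-12340760, Myoz2 (ENSMUSG00000028116) at chr3:123006206-123035015 and Tcap (ENSMUSG00000007877) at chr11:98383811-98384953. Flnc (ENSMUSG00000068699) is at chr6:29433256-29461883 and Des (ENSMUSG00000026208) at chr1:75360329-75368579. Counts are per gene, so they do not separate isoforms.

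The promoters of the 5 genes that passed the test in both Mst-1 comparisons are shown because each of these genes changed the same way in comparisons with no library in common. Each run has 275 bases on the gene's own strand, from 250 bases before to 25 after the annotated start (RefSeq, GRCm38.p6). They lie at chr6:29432903-29433177 (plus strand) for Flnc, chr14:20668330-20668604 (minus) for Synpo2l, chr1:75360042-75360316 (plus) for Des, chr2:76982523-76982797 (minus) for Ttn and chr3:123034963-123035237 (minus) for Myoz2. Capitals mark the TEAD motif CATTCC on either strand, which transcription factors at the end of the Hippo pathway bind, or the MEF2 motif of muscle transcription factors.
Flnc: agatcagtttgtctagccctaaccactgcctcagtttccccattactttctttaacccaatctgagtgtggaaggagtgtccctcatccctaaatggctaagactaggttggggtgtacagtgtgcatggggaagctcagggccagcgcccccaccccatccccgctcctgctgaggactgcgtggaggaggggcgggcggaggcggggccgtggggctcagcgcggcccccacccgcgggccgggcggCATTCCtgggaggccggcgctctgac
Synpo2l: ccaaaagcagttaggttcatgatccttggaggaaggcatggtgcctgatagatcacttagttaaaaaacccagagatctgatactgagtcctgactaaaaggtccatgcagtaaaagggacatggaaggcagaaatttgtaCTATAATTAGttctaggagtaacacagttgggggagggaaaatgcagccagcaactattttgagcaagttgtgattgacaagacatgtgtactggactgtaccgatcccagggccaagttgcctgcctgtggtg
Des: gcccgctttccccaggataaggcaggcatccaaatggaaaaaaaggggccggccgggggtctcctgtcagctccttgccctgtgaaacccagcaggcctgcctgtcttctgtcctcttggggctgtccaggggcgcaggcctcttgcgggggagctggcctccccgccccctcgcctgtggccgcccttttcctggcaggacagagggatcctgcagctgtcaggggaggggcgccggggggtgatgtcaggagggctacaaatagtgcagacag
Ttn: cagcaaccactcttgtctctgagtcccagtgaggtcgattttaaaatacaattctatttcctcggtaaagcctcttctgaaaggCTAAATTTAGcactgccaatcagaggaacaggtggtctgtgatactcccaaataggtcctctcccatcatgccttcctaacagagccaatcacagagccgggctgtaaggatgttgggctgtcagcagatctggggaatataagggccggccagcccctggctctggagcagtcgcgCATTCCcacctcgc
Myoz2: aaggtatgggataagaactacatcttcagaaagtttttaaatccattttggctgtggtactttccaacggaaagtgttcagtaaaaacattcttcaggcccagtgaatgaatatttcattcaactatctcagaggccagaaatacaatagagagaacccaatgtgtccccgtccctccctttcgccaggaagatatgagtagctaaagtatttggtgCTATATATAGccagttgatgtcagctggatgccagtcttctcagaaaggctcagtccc
The search used the full windows of 250 bases before to 50 after a start, and 8 of the 9 members had a window there, 14 windows in all. Tcap was not matched. The TEAD letters were in windows of 3 members (Flnc, Ttn and Nebl), in 16.6% of the 27025 genes of the table and in 14.7% of its 32851 windows. The MEF2 motif was in windows of 3 members (Ttn, Synpo2l and Myoz2), in 0.636% of genes and in 0.557% of windows. The CArG box of serum response factor was in windows of 2 members (Ldb3 and Nebl), in 1.81% of genes and in 1.63% of windows. The 2 windows of Flnc overlap and hold the same TEAD letters, and those of Ldb3 the same CArG box. Among the printed runs no match overlapped another. The Des window held none of the motifs, and the MEF2 letters stood before Synpo2l, which rose, and before Myoz2, which fell.

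Depth was ample for every member. Library totals ran from 18580405 to 32663735 counts, and the lowest count of any member in any library was 1592, for Synpo2l. The mouse overexpresses the kinase as labelled, since Stk4, the gene of Mst-1, averaged 23.6 ± 1.27 CPM in the 6 wt libraries and 949 ± 74.7 CPM in the 7 of MstTg (mean ± SD; CPM are counts scaled to a common library size with edgeR's TMM factors). Lgals3, the gene of galectin-3, averaged 55.2 ± 3.39 CPM in MstTg and 3.91 ± 1.04 CPM (n = 5) in Mst1Gal3. In wt it was already at 1.64 ± 0.49 CPM, so it is no check of the Gal3Ko label at 2.14 ± 0.37 CPM (n = 8). Transcripts of the mitochondrial genome took 29.2 to 35.5% of counts in wt and 14.4 to 23.4% in MstTg, and they moved with every Mst-1 comparison below. In heart bulk RNA, fewer cells of a type and less RNA per cell cannot be told apart. All 12 cardiomyocyte markers were measured, and 8 fell and 1 rose in MstTg against wt, with a summed level of 66276 to 72270 CPM in wt and 46003 to 61251 CPM in MstTg. Fibroblast markers rose in 10 of 10, from sums of 1603 to 2260 CPM to sums of 4354 to 5336 CPM. Endothelial markers fell in 9 of 10, from 1199 to 1453 CPM to 882 to 1029 CPM. Of the 12 smooth muscle and pericyte markers 5 fell and 2 rose, with sums of 881 to 1202 CPM in wt and 746 to 915 CPM in MstTg. Macrophage markers rose in 1 of 10 and fell in 1, with sums of 221 to 419 CPM in wt and 273 to 340 CPM in MstTg. Skeletal muscle markers were measured for 3 of 10 genes, of which 2 rose and 1 fell, with sums of 23.3 to 29.4 CPM in wt and 26.2 to 36.0 CPM in MstTg. Atrial markers were measured for 7 of 8 genes and rose in 2, with sums of 29.8 to 71.8 CPM in wt and 68.2 to 101 CPM in MstTg. Without galectin-3, in Mst1Gal3 against Gal3Ko, the counts were alike for some lists but not for all. Of the 12 cardiomyocyte markers 8 fell and 2 rose, with sums of 69856 to 79604 CPM in Gal3Ko and 54128 to 68294 CPM in Mst1Gal3. Fibroblast markers rose in 10 of 10, and endothelial markers fell in 8 of 10. The 12 smooth muscle and pericyte markers differed from the first comparison, as 4 rose and 3 fell. By the same test 28.2% of all genes were higher and 26.8% lower in MstTg against wt. In Mst1Gal3 against Gal3Ko the shares were 26.9% and 25.6%. Mitochondrial transcripts took 26.8 to 38.3% of counts in Gal3Ko and 15.7 to 23.0% in Mst1Gal3. In 7 of the 26 libraries the atrial gene Myl7 exceeded 5 CPM. The part of these shifts in the members' changes was not tested.

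Titin made up 4.28 to 7.16% of all counts in wt, 5.80 to 7.21% in Gal3Ko, 8.29 to 9.87% in MstTg and 8.13 to 9.78% in Mst1Gal3. Such shares are not scaled by TMM factors. Mitochondrial transcripts, counted in the same totals, took a mean of 31.0% in wt and 17.7% in MstTg. All 9 members together took 4.86 to 7.72% in wt and 9.28 to 10.9% in MstTg. Much of that bulk is length, since the annotated exons of Ttn span 117 kb in all and those of Tcap 0.948 kb. Per kb of exon the order of levels in wt was Ttn (563 ± 90.6 CPM per kb, SD, n = 6), Actn2 (443 ± 21.2), Des (362 ± 23.0), Tcap (352 ± 85.0), Myoz2 (165 ± 11.3), Ldb3 (127 ± 4.83), Flnc (67.3 ± 4.63), Synpo2l (26.7 ± 2.09) and Nebl (26.2 ± 2.06). The ranges of Ttn and Actn2 overlapped, as did those of Des and Tcap and those of Synpo2l and Nebl, so these ranges do not order those neighbours. The lengths count every annotated exon, whether or not the left ventricle uses it, so the order between genes also depends on that choice. Within a wt library, Ttn per kb was 0.80 to 1.42 times Actn2, with a median of 1.37. In wt replicate 2 Ttn was at 387 and Actn2 at 483 CPM per kb.

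In MstTg the order per kb was Des (946 ± 128 CPM per kb, SD, n = 7), Ttn (677 ± 37.3), Actn2 (441 ± 51.3), Tcap (413 ± 112), Flnc (305 ± 51.3), Myoz2 (145 ± 9.03), Ldb3 (132 ± 12.2), Synpo2l (130 ± 19.2) and Nebl (28.8 ± 2.68). With these exon lengths Des stood above Ttn with no overlap, and a shorter length for Ttn would raise its level per kb. Actn2, Tcap and Flnc overlapped with their neighbours, and so did Myoz2, Ldb3 and Synpo2l. Gal3Ko kept Ttn first at 613 ± 37.8 CPM per kb (n = 8) and Mst1Gal3 had Des first at 1025 ± 156 CPM per kb (n = 5).

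**Figure D1:**
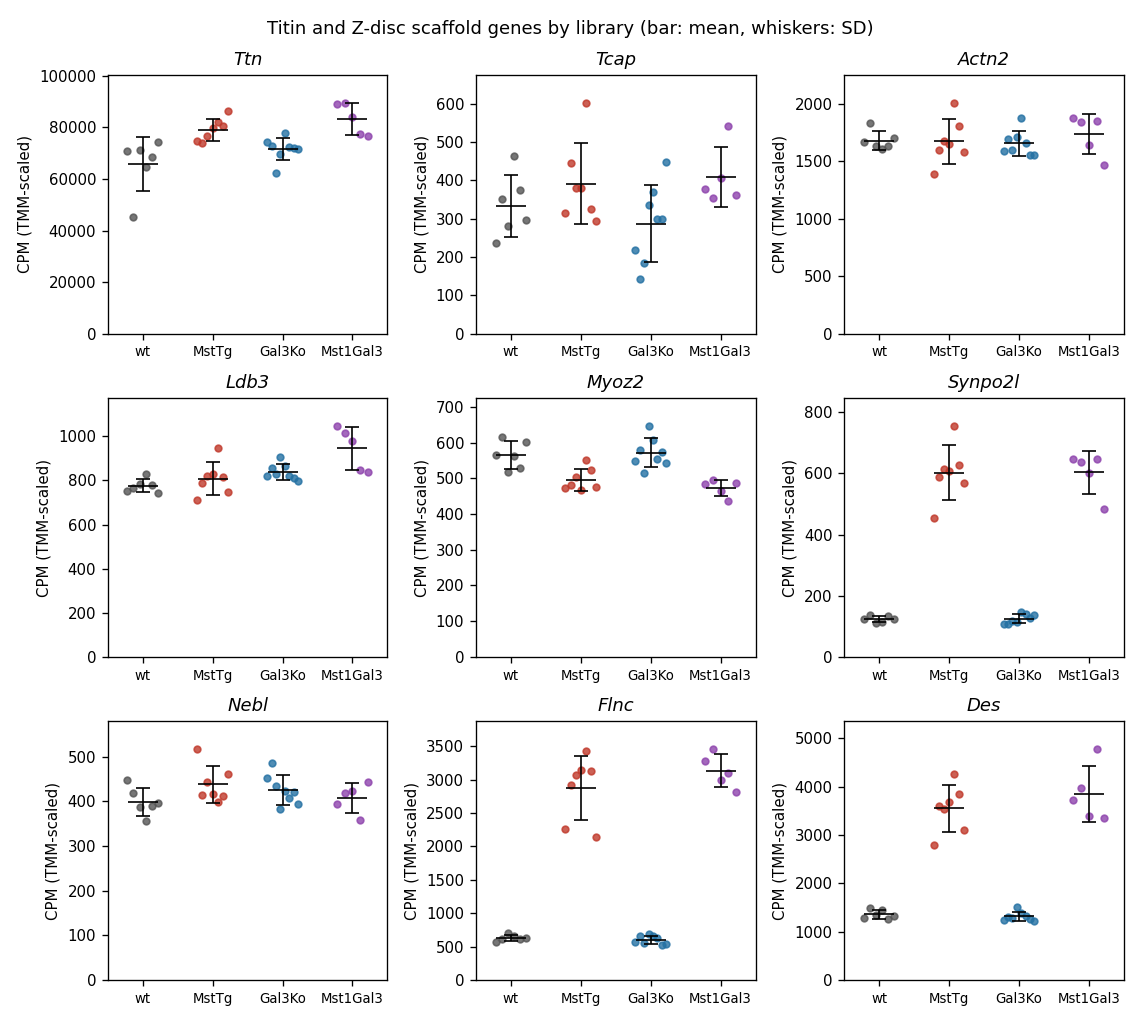
Level of each gene in CPM (TMM-scaled; linear axis from 0) in the 26 libraries of the 4 groups, with 1 point a library, a bar at the mean and whiskers of 1 SD. Every MstTg and Mst1Gal3 library lies above every wt and Gal3Ko library for Synpo2l, Flnc and Des, and 1 wt library of Ttn lies at 45185 CPM.

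Across all genes 55.0% passed the test in MstTg against wt (edgeR's quasi-likelihood test, Benjamini-Hochberg adjusted p under 0.05 over all 15249 genes), 28.2% higher and 26.8% lower. Of the 9 members 5 passed, 4 higher and 1 lower. A share of 5 of 9 is close to that background, so the count itself is no result about the members. Their median log2 fold change was 0.23 against 0.02 for all genes. In Mst1Gal3 against Gal3Ko 52.5% of genes passed, 26.9% higher and 25.6% lower, and 6 of the 9 members did, 5 higher and 1 lower, with a median of 0.22 against 0.01.

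Flnc encodes the filamin that links the Z-disc lattice to the cell membrane. In wt it ran from 572 to 698 CPM with a median of 626, and in Gal3Ko from 532 to 695 with a median of 596. MstTg libraries ran from 2148 to 3429 CPM with a median of 3072, and Mst1Gal3 replicates 1 to 5 had 3281, 3458, 2996, 3102 and 2816 CPM. The lowest Mst-1 library was above the highest library without the transgene. The log2 fold change was 2.18 ± 0.09 (SE, adjusted p = 7.41e-19) in MstTg against wt and 2.38 ± 0.09 (adjusted p = 3.52e-20) in Mst1Gal3 against Gal3Ko.

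Des, the intermediate filament gene, was at 1267 to 1486 CPM in wt (median 1331) and at 1226 to 1518 CPM in Gal3Ko (median 1296). Under Mst-1 it was at 2802 to 4272 CPM in MstTg (median 3604) and at 3737, 3978, 3391, 4783 and 3348 CPM in Mst1Gal3. Neither pair of groups overlapped. Its log2 fold change was 1.39 ± 0.09 (adjusted p = 4.34e-15) with galectin-3 intact and 1.54 ± 0.08 (adjusted p = 2.30e-16) without it. A second gene, Gm15179, overlaps exons of Des on the opposite strand, with at most 34 counts in any library against at least 19701 for Des, and the sources used here give no strand setting for the counting.

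Synpo2l, an actin-binding Z-disc gene, lay between 111 and 136 CPM in wt (median 124) and between 106 and 148 CPM in Gal3Ko (median 123). It reached 455 to 756 CPM in MstTg (median 609). The Mst1Gal3 replicates had 647, 637, 603, 646 and 484 CPM, again without overlap. The change was 2.28 ± 0.10 on the log2 scale (adjusted p = 1.11e-18) in MstTg against wt and 2.27 ± 0.09 (adjusted p = 4.50e-19) in Mst1Gal3 against Gal3Ko.

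Titin itself moved far less. Ttn was at 45185 to 74270 CPM in wt (median 69708) and at 74120 to 86255 CPM in MstTg (median 79724), so 6 of 7 MstTg libraries exceeded every wt library. The log2 fold change was 0.27 ± 0.08 (adjusted p = 0.00832), and it was 0.18 ± 0.07 (adjusted p = 0.0284) without wt replicate 2, the lowest library. In Gal3Ko it ran from 62441 to 77685 CPM (median 72324), against 89212, 89661, 84023.5, 77340 and 76706 CPM in the Mst1Gal3 replicates, 3 of which exceeded every Gal3Ko library. There the change was 0.22 ± 0.09 (adjusted p = 0.0335). This call was lost without Gal3Ko replicate 3 or 6 or Mst1Gal3 replicate 1, 2 or 3, with adjusted p = 0.0676, 0.0585, 0.0868, 0.0882 and 0.0571 in that order, and without the 7 libraries with Myl7 above 5 CPM, where the change itself was 0.23 (adjusted p = 0.0833). With library totals the changes were 0.51 and 0.45.

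Tcap, which caps titin, had an SD of 19.0 to 35.2% of its mean within the groups, against 3.80 to 16.8% for the other members. Its CPM spanned 236 to 463 in wt (median 325), 294 to 603 in MstTg (median 380) and 142 to 448 in Gal3Ko (median 300), and were 378, 354, 407, 543 and 362 in Mst1Gal3. The groups overlapped throughout. The log2 change was 0.23 ± 0.22 in MstTg against wt (adjusted p = 0.407, approximate 95% interval -0.21 to 0.67) and 0.51 ± 0.23 in Mst1Gal3 against Gal3Ko (adjusted p = 0.0641), so neither passed. The second was past the threshold without the Myl7 libraries (0.84, adjusted p = 0.00664) and without Gal3Ko replicate 5 (0.57, adjusted p = 0.0459) or 8 (0.63, adjusted p = 0.0195).

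Actn2 and Nebl passed neither Mst-1 comparison. Actn2, the actin crosslinker, had a mean of 1681 ± 80.6 CPM (SD, n = 6) in wt, 1673 ± 195 (n = 7) in MstTg, 1656 ± 108 (n = 8) in Gal3Ko and 1735 ± 175 (n = 5) in Mst1Gal3, with overlapping libraries. Its log2 change was -0.01 ± 0.07 in MstTg against wt (adjusted p = 0.950, interval -0.14 to 0.13) and 0.07 ± 0.07 in Mst1Gal3 against Gal3Ko (adjusted p = 0.450, interval -0.07 to 0.21). Nebl, the heart's nebulin relative, was at 356 to 449 CPM in wt (median 393) and at 400 to 518 CPM in MstTg (median 418), a log2 difference of 0.13 ± 0.07 (adjusted p = 0.0886). It was -0.06 ± 0.07 (adjusted p = 0.470) in Mst1Gal3 against Gal3Ko. In MstTg against wt Nebl passed without wt replicate 1, at 0.17 (adjusted p = 0.0366). With library totals in place of TMM factors the change of Actn2 was 0.24 (adjusted p = 0.00440) and 0.30 (adjusted p = 0.000634), near the medians of all genes, 0.27 and 0.24, and that of Nebl passed at 0.38 (adjusted p = 2.97e-06) and 0.18 (adjusted p = 0.0154), the second having turned.

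Myoz2, whose product holds calcineurin at the Z-disc, was the member that fell. It was at 518 to 616 CPM in wt (median 564) and at 468 to 552 CPM in MstTg (median 482), and 5 of 7 MstTg libraries were below every wt library. Gal3Ko libraries ran from 516 to 647 CPM (median 564), above all of the Mst1Gal3 replicates at 483, 495, 464, 437 and 486 CPM. The log2 change was -0.19 ± 0.06 (adjusted p = 0.00489) and -0.27 ± 0.06 (adjusted p = 0.000173). With library totals in place of TMM factors the first became 0.06 (adjusted p = 0.361) and the second -0.04 (adjusted p = 0.607), both below the median of all genes under that scaling.

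Ldb3, the PDZ-LIM protein of the Z-disc, was at 743 to 828 CPM in wt (median 773), 711 to 947 in MstTg (median 816), 798 to 906 in Gal3Ko (median 824) and 1048, 1013, 979, 846 and 839 in Mst1Gal3. The libraries overlapped in each of the 4 comparisons. Its log2 change was 0.06 ± 0.06 in MstTg against wt (adjusted p = 0.431) and 0.17 ± 0.06 in Mst1Gal3 against Gal3Ko (adjusted p = 0.0187). Across all genes 4.89% passed in Mst1Gal3 against MstTg, and of the members Ldb3 alone did, at 0.23 ± 0.06 (adjusted p = 0.0309). These comparisons share the Mst1Gal3 libraries. In Mst1Gal3 against MstTg 3 of the 12 cardiomyocyte markers also rose and none fell, and their part in the Ldb3 difference was not tested. The call against MstTg was lost without MstTg replicate 1, 2 or 7 (adjusted p = 0.0739, 0.0624 and 0.0667) or Mst1Gal3 replicate 1, 2 or 3 (0.134, 0.0986 and 0.0668), and the call against Gal3Ko without Gal3Ko replicate 6 (0.0520) or Mst1Gal3 replicate 1 or 2 (0.0881 and 0.0642). With library totals the changes of Ldb3 were 0.30 in MstTg against wt (adjusted p = 0.000109), 0.41 in Mst1Gal3 against Gal3Ko and 0.15 in Mst1Gal3 against MstTg (adjusted p = 0.191). Ldb3 lies 12.8 Mb from Lgals3 on chromosome 14 and Synpo2l 26.7 Mb from it; the part of that distance was not tested.

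**Figure D2:**
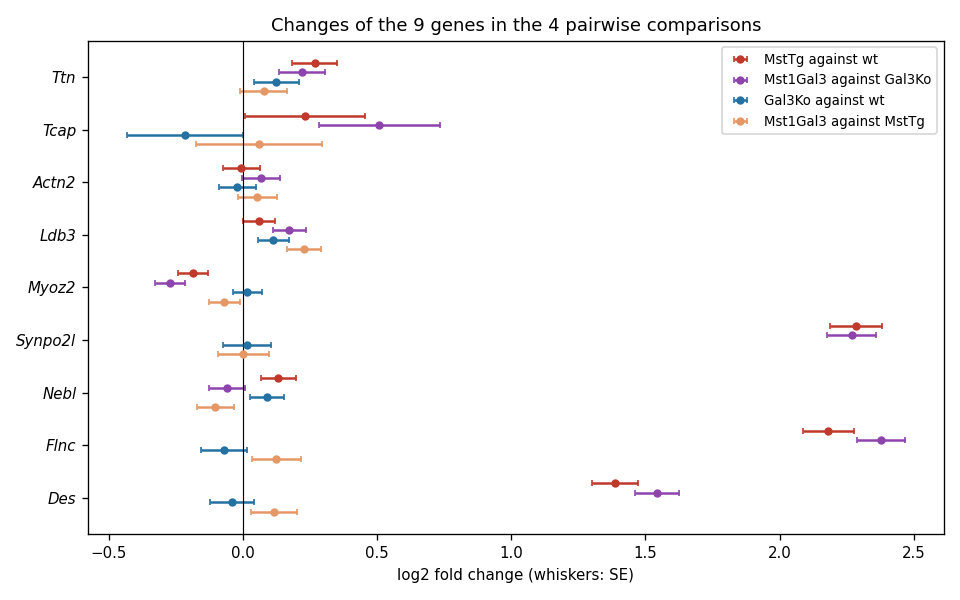
Log2 fold change of each gene with whiskers of 1 SE from the edgeR fit, in the 4 pairwise comparisons. The changes of Synpo2l, Flnc and Des lie between 1.39 and 2.38 in both Mst-1 comparisons, and those of the other 6 genes between -0.27 and 0.51.

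For the galectin-3 knockout alone, 0.354% of genes passed and none of the members did. Their log2 changes in Gal3Ko against wt ran from -0.22 (Tcap) to 0.12 (Ttn), and the lowest adjusted p was 0.780, for Ldb3. With Mst-1 overexpressed, the members other than Ldb3 ran from -0.10 (Nebl) to 0.12 (Flnc). The interval of Flnc in that comparison was -0.06 to 0.31 and that of Synpo2l -0.19 to 0.19 on the log2 scale.

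The interaction asks whether the Mst-1 response differs with and without galectin-3. Across all genes 0.656% passed, and no member did in edgeR's test, the lowest adjusted p being 0.406 for Nebl. Nebl, which was higher by 0.13 in MstTg and lower by 0.06 in Mst1Gal3 than its control, had an interaction of -0.19 ± 0.09. The interaction was 0.19 ± 0.13 for Flnc (interval -0.05 to 0.44) and -0.02 ± 0.13 for Synpo2l (interval -0.27 to 0.24). For Des it was 0.16 ± 0.12 (interval -0.08 to 0.39) and for Tcap 0.28 ± 0.32 (interval -0.35 to 0.90).

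Because a share of counts depends on everything else in the library, each member was also compared with Actn2 in the same library, a ratio that library scaling cannot move. It was tested with exact two-sided permutation tests of the log2 count ratio, adjusted over 32 tests (8 genes, 4 comparisons). In MstTg against wt the ratio rose for Synpo2l by 2.29, for Flnc by 2.18 and for Des by 1.39 (exact permutation p = 0.000583 each, the smallest that 1716 arrangements allow, adjusted p = 0.00414). That of Ttn rose by 0.30 (adjusted p = 0.0373) and that of Myoz2 fell by 0.17 (adjusted p = 0.0326). Per kb of exon, Ttn stood at 1.28 ± 0.24 times Actn2 in wt (SD, n = 6) and at 1.55 ± 0.16 times in MstTg (n = 7). The Ttn ratio lost its call without wt replicate 2, where it was 0.17 (adjusted p = 0.108), and without wt replicate 4 or MstTg replicate 1, 2, 3, 4 or 7, where adjusted p ran from 0.0606 to 0.0831. The Myoz2 ratio lost it without wt replicate 2, 4 or 6 or MstTg replicate 3 or 4, with adjusted p from 0.0505 to 0.0539.

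In Mst1Gal3 against Gal3Ko the ratio rose for Flnc by 2.32, Synpo2l by 2.21 and Des by 1.47 (exact permutation p = 0.000777 each, the smallest possible, adjusted p = 0.00414), and fell for Myoz2 by 0.33 (adjusted p = 0.0107). The Ttn ratio differed by 0.15 (adjusted p = 0.0850) and passed without Mst1Gal3 replicate 4 (0.21, adjusted p = 0.0194). Ldb3 rose by 0.13 against Actn2 in Gal3Ko against wt (adjusted p = 0.0384), a call lost without any 1 of Gal3Ko replicates 1, 2, 3, 4, 7 or 8 or wt replicates 1, 2 or 6, with adjusted p from 0.0606 to 0.0927. Ldb3 did not pass in Mst1Gal3 against Gal3Ko (0.10, adjusted p = 0.236) but did without Mst1Gal3 replicate 4 (0.17, adjusted p = 0.00924). No ratio passed in Mst1Gal3 against MstTg with all libraries, where the lowest adjusted p was 0.0661 (Ldb3, 0.17). Without Mst1Gal3 replicate 4 that of Ldb3 passed (0.23, adjusted p = 0.0121), and without replicate 5 that of Myoz2 did (-0.19, adjusted p = 0.0323). The same permutation test was also run with Ttn as the reference. There the Ldb3 ratio in Gal3Ko against wt was -0.03 (adjusted p = 0.852). Nebl fell by 0.28 in Mst1Gal3 against Gal3Ko (adjusted p = 0.0193). Flnc, Synpo2l and Des again rose and Myoz2 again fell in both Mst-1 comparisons (adjusted p = 0.00311 each).

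**Figure D3:**
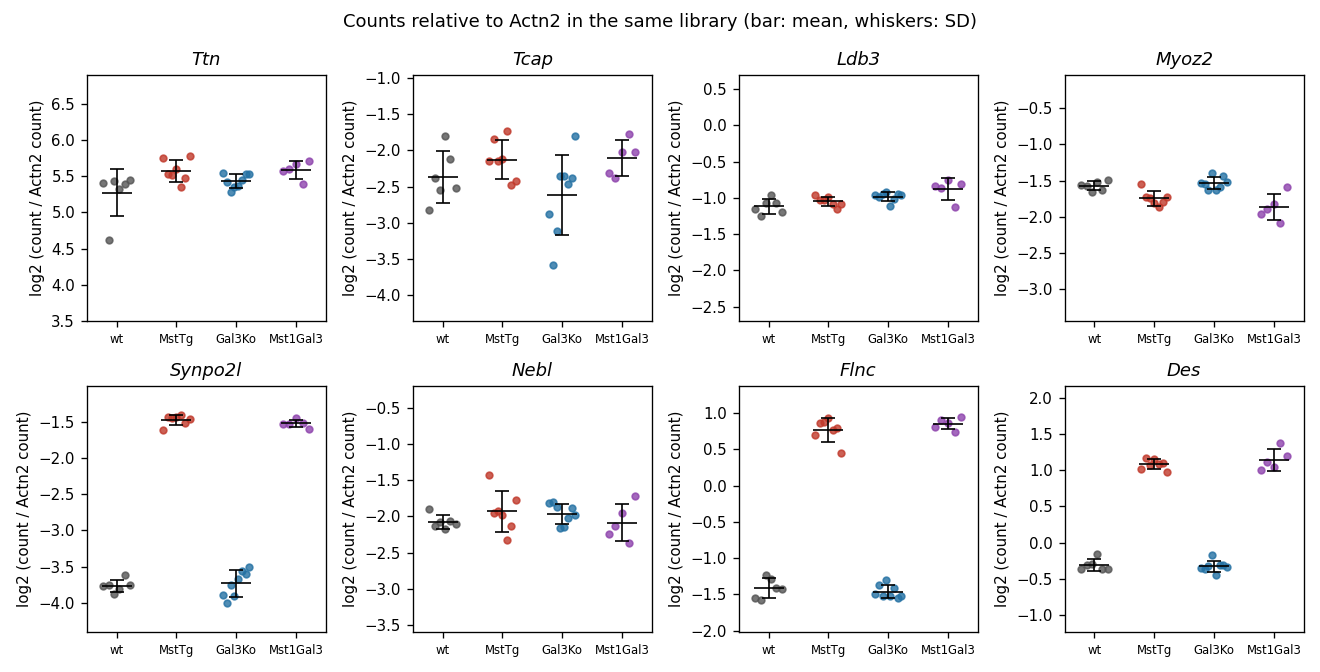
Log2 ratio of each gene's count to that of Actn2 in the same library, by group, with 1 point a library, a bar at the mean and whiskers of 1 SD. Synpo2l, Flnc and Des form separate high and low groups, while the ratios of Tcap spread over more than those of Ldb3 or Myoz2 within each group.

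Of 30 measured Z-disc partner genes (32 listed) 18 rose and 9 fell in MstTg against wt, with a median log2 change of 0.30 against 0.02 for all genes. That is 60% higher and 30% lower, against 28.2% and 26.8% of all genes. This list and those below were chosen with earlier results of these data known, so such shares are no test. Nrap, an anchoring protein of growing myofibrils, rose from 926 ± 88.9 CPM (SD, n = 6) to 2961 ± 305 CPM (n = 7), by 1.68 ± 0.07 on the log2 scale (adjusted p = 1.58e-18). Pdlim3, an alpha-actinin-binding LIM protein, rose by 3.08 ± 0.14, and Lmcd1, a LIM protein that restrains GATA factors, by 2.51 ± 0.13. Ablim1, an actin-binding LIM protein, fell by 0.85 on the log2 scale. In Mst1Gal3 against Gal3Ko 19 of the 30 rose and 7 fell, 63.3% and 23.3% against 26.9% and 25.6% of all genes.

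Of 21 genes for titin's ligands and the regulators of its splicing 7 rose and 9 fell, with a median of -0.09. That is 33.3% higher and 42.9% lower, against 28.2% and 26.8% of all genes. Fhl1, which binds an elastic stretch of titin, rose from 82.0 ± 3.23 to 984 ± 77.5 CPM, by 3.58 ± 0.08 (adjusted p = 4.22e-26), and its relative Fhl2 fell by 0.73 on the log2 scale. Ankrd1, a titin-associated ankyrin repeat protein induced by stretch, rose by 2.12 ± 0.12, and Smyd2, a lysine methyltransferase, fell by 1.17. In Mst1Gal3 against Gal3Ko 7 rose and 8 fell, 33.3% and 38.1% against 26.9% and 25.6% of all genes. Capn3, a protease that binds titin, was the gene of this list that passed the interaction test (1.08 ± 0.23, adjusted p = 0.0206), at means of 1.15 to 3.46 CPM over the groups, and it was named after its values were seen. It also passed as lower in Gal3Ko against wt (-0.64 ± 0.15, adjusted p = 0.0454), as did Ankrd35 of the filamin and desmin list (-0.72, adjusted p = 0.0151), likewise named after its values were seen.

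Of 19 genes of the network around filamin C and desmin 14 rose and 1 fell in MstTg against wt, with a median of 0.51. That is 73.7% higher against 28.2% of all genes, in a list chosen with earlier results of these data known. In Mst1Gal3 against Gal3Ko 15 rose and 2 fell, 78.9% and 10.5% against 26.9% and 25.6% of all genes. Fibroblast markers rose in 10 of 10 in both comparisons, and the part of such cells in these changes was not tested. Xirp2 and Xirp1, the Xin proteins that bind filamin C, rose by 3.51 ± 0.10 and 1.84 ± 0.10. Nes and Synm, the intermediate filament partners nestin and synemin, rose by 3.13 ± 0.09 and 1.56 ± 0.07. Of 16 small heat shock and chaperone-assisted turnover genes 8 rose and 1 fell in each of the Mst-1 comparisons. The called share of 56.2% was near the 55.0% and 52.5% of all genes. By direction it was 50% higher and 6.25% lower in each. Of all genes 28.2% were higher and 26.8% lower in MstTg against wt, and 26.9% and 25.6% in Mst1Gal3 against Gal3Ko. Hspb1 rose by 2.45 ± 0.17, Hspb7 by 1.01 ± 0.07 and Hspb6 by 0.66 ± 0.08, and Tgm2, a transglutaminase that crosslinks proteins, by 0.70 ± 0.07. In edgeR's test for Mst1Gal3 against MstTg, Myot, Speg, Hspb6 and Cryab were the genes of these 4 lists that passed, all higher, by 0.64, 0.28, 0.37 and 0.27, and Myot, Speg and Cryab were named after their values were seen. These are 4 of 86 genes, 4.65% against 4.89% of all genes, and 3 of 12 cardiomyocyte markers rose in the same comparison.

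**Figure D4:**
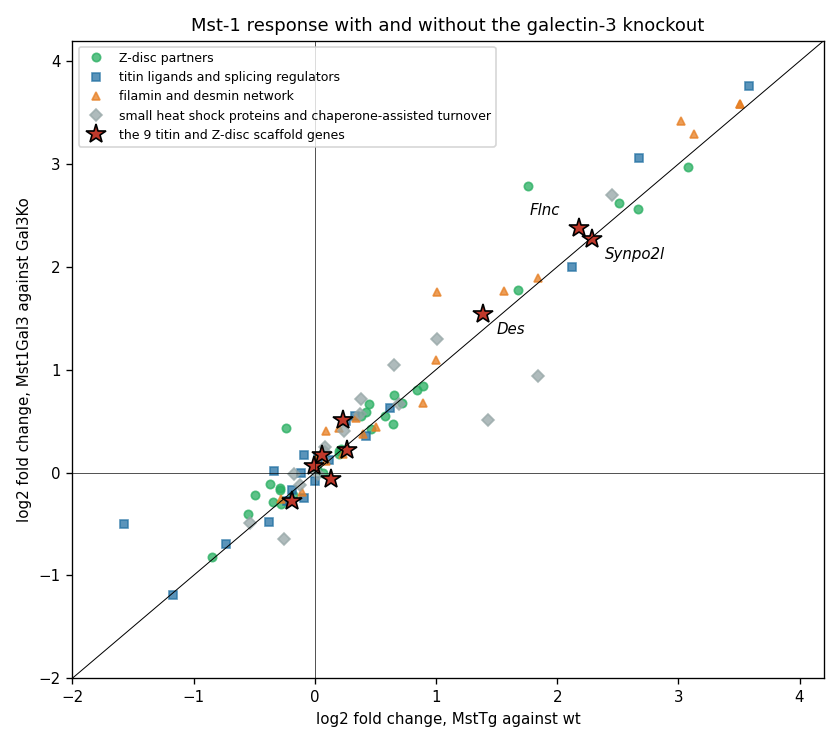
Log2 fold change of every measured gene of the 4 lists, and of the 9 scaffold genes (stars), in MstTg against wt (x) and in Mst1Gal3 against Gal3Ko (y), groups that share no library, with the line of equality. Flnc, Synpo2l and Des lie near the line at 2.18 and 2.38, 2.28 and 2.27, and 1.39 and 1.54.

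Within groups, the members were also compared library by library. Deviations of log2 CPM from each group's mean were correlated over the 26 libraries for the 36 pairs of members, with permutation within groups (100000 permutations, two-sided). All values of a library share its scaling. By Pearson's r 11 pairs were positive and 4 negative at an adjusted p under 0.05, and by Spearman's rho 8 and 2. The share of all gene pairs that would pass was not computed, so these counts are no result about the members. Tcap and Nebl ran in opposite directions, with Pearson's r = -0.75 (permutation p = 2e-05, adjusted p = 0.00072) and Spearman's rho = -0.73 (permutation p = 3e-05, adjusted p = 0.00036). Without the 2 libraries farthest from the median of Tcap r was -0.69, and within groups it was -0.77 in wt, -0.66 in MstTg, -0.86 in Gal3Ko and -0.84 in Mst1Gal3. Actn2 and Des ran together, with r = 0.80 (permutation p = 0.0001, adjusted p = 0.0012) and rho = 0.78 (permutation p = 3e-05, adjusted p = 0.00036), and r = 0.69 without the 2 farthest libraries. Ldb3 and Flnc had r = 0.76 (permutation p = 6e-05, adjusted p = 0.00108) and rho = 0.79 (permutation p = 3e-05, adjusted p = 0.00036), and r = 0.66 without the 2 farthest. No pair with Ttn passed, with r from -0.16 to 0.22, and from -0.25 to 0.38 without the 2 libraries farthest from the median of Ttn. For Ttn and Actn2 r was -0.79 in wt, the group with the low Ttn library, and 0.43 to 0.58 in the other groups.

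**Figure D5:**
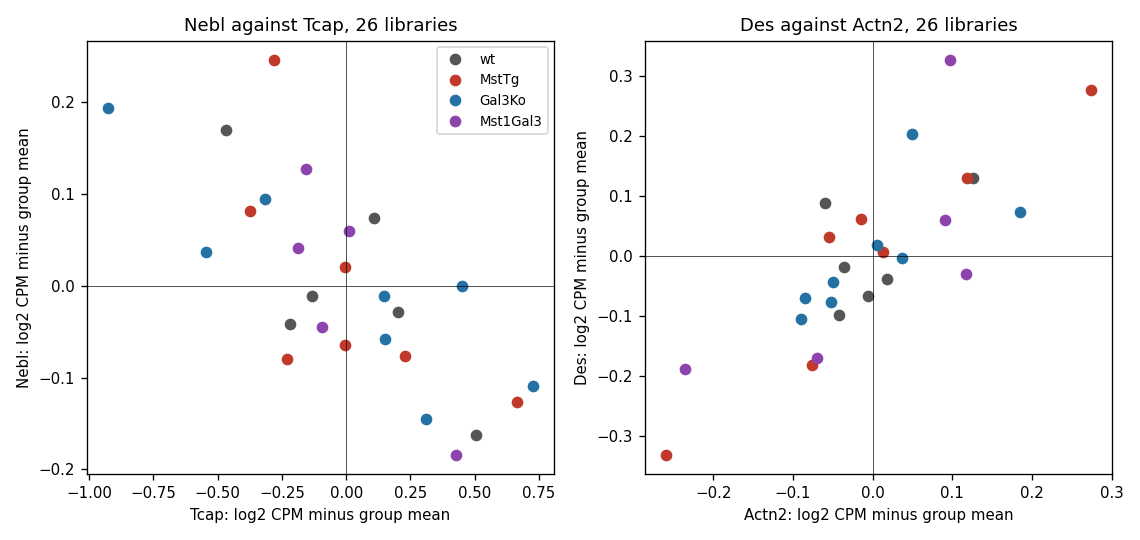
Deviation of log2 CPM from the group mean in 26 libraries, Nebl against Tcap (left) and Des against Actn2 (right), coloured by group. The Nebl and Tcap points fall from upper left to lower right (r = -0.75), and the Des and Actn2 points rise (r = 0.80).

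Among the 8012 genes that averaged 10 CPM or more, those most like Ttn by the r of these deviations over the 26 libraries were Vps13d (0.85), Dst (0.81), Kidins220 (0.79) and Ptprm (0.78). Vps13d and Dst have 24.8 and 41.2 kb of annotated exons, and Kidins220 and Ptprm 8.67 and 8.83 kb. The median of the genes searched was 5.24 kb. At the other end were Tmsb4x, Rps7, Rpl34 and Gm25395, at -0.74 to -0.73, with 0.272 to 2.64 kb of exons. The genes most like Tcap were Pim3 (0.86), Erbb2 (0.84), Tns2 (0.84) and Arhgap23 (0.81), and Erbb2 lies 27.5 kb from Tcap on chromosome 11. Those least like Tcap had r from -0.85 to -0.83, lower than the -0.75 of Nebl. These values describe the likeness of libraries within groups, and they carry no test.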

How the data were processed

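Left ventricle RNA was depleted of ribosomal RNA and made into directional NEBNext libraries from 200 ng, per the labels' protocols. Tools listed in the submitters' processing notes are STAR, featureCounts and bcl2fastq 2.19.1.403, with the build GRCm38. Values in the deposited table are raw counts of reads for 15249 genes, not normalized, all with a mean count of at least 10.0. No multi-mapping or strand setting is given in the sources used here.

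Groups came from the sample titles. Groups were compared with edgeR 4.0.16 (R 4.3.3) using TMM factors, filterByExpr (0 genes removed), robust glmQLFit and glmQLFTest on all 26 libraries with 1 mean per group, Benjamini-Hochberg adjustment over all genes, threshold 0.05. SE is the fold change over the square root of F, and intervals are approximate. CPM used TMM-adjusted totals, log2 CPM a prior count of 0.5. Levels per kb used exon unions of GENCODE M21 (GRCm38). Counts were checked for duplicate libraries (no replicate pair had a chi-square under 4.97 times its degrees of freedom). Python 3.11.15 with scipy 1.17.1 gave the permutation tests. The scripts were tested on simulated data. The main fit did not pair samples by replicate number. Correlations of same-numbered deviations ran from -0.28 to 0.23 over 22 pairs, 7 of them over 0.1. In Gal3Ko against wt replicates 1 to 6 had 0.15, 0.18, -0.01, 0.20, 0.16 and 0.07. Libraries with different numbers were not compared, so these values cannot show whether a number stands for a shared batch.

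The members and lists were chosen with earlier results of these data known. Genes named are Stk4, Lgals3, all members, up to 4 genes per list with the smallest p in MstTg against wt, and the 4 genes most like Ttn and Tcap. Capn3, Myot, Speg, Cryab, Ankrd35, the 4 genes least like Ttn, Myl7 and Gm15179 fall outside this rule. Alternatives were DESeq2 1.42.0, limma-voom (limma 3.58.1), other scalings and filters, leaving out replicates and a replicate block. Leaving out the 7 libraries with Myl7 above 5 CPM was chosen after seeing the data.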

Additional observations from a re-analysis of the deposited data

Results flagged for a closer look

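In 3 of the 36 gene and group combinations 1 library stood far from the rest of its group, where chance alone flags about 1 in 20. Ttn in wt replicate 2 was at 45185 CPM, and the other wt libraries were at 64514 to 74270 CPM. Tcap in Mst1Gal3 replicate 4 was at 543 CPM against 354 to 407 CPM in the other 4 libraries. Synpo2l in Mst1Gal3 replicate 5 was at 484 CPM against 603 to 647 CPM, and it still lay above every library without the transgene.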

How the results depend on the processing

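The levels of Flnc, Synpo2l and Des passed in both Mst-1 comparisons under every alternative fit tried, though their ratios to Actn2 did not with the replicate block. Of 2052 alternative values for single genes and ratios, 1924 kept their direction and their side of the threshold, and 128 did not. Of these, 62 changed sign, and among those that kept their sign 51 lost a call and 15 gained one. Some of the 62 also crossed the threshold, such as Actn2 in MstTg against wt with library totals. The 2052 include values that could not move. Ratios were recomputed without each of the 26 libraries, also those in neither group of a comparison, where the ratio difference stays the same. The fit without a filter on low counts repeats the main fit, as filterByExpr removed 0 genes. The share kept is therefore no measure of how stable the results are. Where values moved, the cause was not tested. With library totals in place of TMM factors the median of all genes moved to 0.27 in MstTg against wt, where 7789 genes were higher and 2166 lower against 4302 and 4083, and to 0.24 in Mst1Gal3 against Gal3Ko, where 7374 were higher and 1929 lower against 4108 and 3905. Under it Actn2 turned to 0.24 and Myoz2 to 0.058 in MstTg against wt, Nebl to 0.18 in Mst1Gal3 against Gal3Ko, Myoz2 to -0.049 and Synpo2l to -0.037 in Gal3Ko against wt, and Tcap to -0.010, Actn2 to -0.020 and Synpo2l to -0.071 in Mst1Gal3 against MstTg. Tcap in Mst1Gal3 against Gal3Ko then passed at 0.73 (adjusted p = 0.0124), as it did with limma-voom (0.58, adjusted p = 0.0200), and the other splits under library totals were 16 higher and 45 lower in Gal3Ko against wt, 136 and 558 in Mst1Gal3 against MstTg.

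Other values near 0 changed sign. Synpo2l in Mst1Gal3 against MstTg was -0.0010 with DESeq2, -0.0027 without mitochondrial genes, -0.0187 with voom quality weights and -0.0106 with the groups of the comparison alone. Actn2 in MstTg against wt was 0.0015 with upper-quartile factors, 0.0128 without mitochondrial genes and 0.0024 with genes of at least 1 CPM. The Ttn interaction was 0.0167 with voom quality weights. Without the Myl7 libraries, Myoz2 and Synpo2l were -0.0475 and -0.0178 in Gal3Ko against wt and 0.0041 and 0.0220 in the interaction.

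Genes called in Gal3Ko against wt, 54 in all, were 89 with DESeq2, 88 with voom quality weights, 33 with the 2 groups alone and 29 without the Myl7 libraries. The interaction, with 100 genes, had 193 with DESeq2 and 51 with the replicate block. Members called in Mst1Gal3 against MstTg were 0 with library totals, with the groups alone and with the replicate block, against 1. The replicate block fit groups libraries by replicate number. In it Actn2 was 0.0062 in MstTg against wt and 0.0054 in Gal3Ko against wt. Synpo2l was -0.0072 in Gal3Ko against wt and 0.0418 in the interaction. The blocked ratio to Actn2 gave 0 calls against 10, since its few pairs cannot pass after adjustment, and turned to -0.0289 for Synpo2l in Gal3Ko against wt and -0.10 for Tcap in Mst1Gal3 against MstTg. The block also ended the Ldb3 call in Mst1Gal3 against Gal3Ko (adjusted p = 0.0931) and brought Tcap past it there (adjusted p = 0.0127).

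Leaving out 1 library at a time gave 52 to 189 genes in the interaction, 469 to 1040 in Mst1Gal3 against MstTg (the lowest without Mst1Gal3 replicate 1) and 0 to 1 members called there. Ranges that crossed 0 were, in Gal3Ko against wt, -0.0489 to 0.0052 for Actn2, -0.0124 to 0.0414 for Myoz2, -0.0217 to 0.0466 for Synpo2l, -0.0419 to 0.01 for the Des ratio and -0.0007 to 0.0696 for the Synpo2l ratio. In the interaction they were -0.073 to 0.0545 for Synpo2l and -0.0862 to 0.0393 for Ttn. In Mst1Gal3 against MstTg they were -0.0567 to 0.0707 for Synpo2l, -0.0626 to 0.20 for Tcap, -0.0544 to 0.0979 for the Tcap ratio and -0.0162 to 0.071 for the Ttn ratio. In MstTg against wt Actn2 ran from -0.0558 to 0.0338.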
